A study of Mus musculus with 12 samples.

Results

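The somatic cells of the fetal mouse gonad were compared between embryonic day 12.5 (E12.5) and embryonic day 13.5 (E13.5), using 4 of the 12 small RNA libraries of the study. The 4 libraries are ovarian (female) and testicular (male) somatic cells at each of the 2 stages, with 1 library per sex and stage, and every one of the 616 listed mature microRNAs was read in each. All embryos were of the outbred CD1 strain, and the labels name no allele, transgene or treatment. Each library was made from a pool of about 80 gonads, freed of the mesonephros, from which the primordial germ cells (PGC) had been drawn off with anti-CD15 magnetic beads. The fraction left behind is the somatic cell (SC) fraction. It is therefore a mixture of supporting, interstitial, endothelial, blood and other cells, and the labels give its purity as over 90%. Somatic libraries of E11.5 gonads of both sexes and the 6 PGC libraries of the same stages and sexes were used for the spread and for comparison. In bulk libraries, fewer cells of a type and less RNA per cell cannot be told apart.

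MicroRNAs are short RNAs that lead Argonaute proteins to messenger RNAs, mostly by pairing of the seed, bases 2 to 8 from the 5′ end. Each hairpin precursor can give a mature RNA from its 5′ arm (5p) and from its 3′ arm (3p). Between E12.5 and E13.5 the testis forms cords of Sertoli cells and its first Leydig cells, while the ovary takes on its own program and female germ cells begin to enter meiosis. Mouse germ cells are known for the miR-290 cluster, shared with pluripotent cells, and for an X-linked group beside Fmr1, here called the Fx-mir cluster. MiR-202 is known from gonadal supporting cells, and miR-140 and miR-455 are linked to SOX9, the factor of Sertoli cells and cartilage.

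The sequences below carry the comparisons that follow, and 526 of the 616 listed microRNAs had an entry in RefSeq (GRCm38.p6, the build family named in the labels). Capitals mark the seed. The first set is of the miR-290 cluster, on the plus strand of chromosome 7. MiR-291a-3p (chr7:3218968-3218989), miR-294-3p (chr7:3220691-3220712) and miR-295-3p (chr7:3220815-3220837) share the seed AAGUGCU, and miR-290a-5p (chr7:3218639-3218660) and miR-293-3p (chr7:3220390-3220411) have others.
miR-291a-3p: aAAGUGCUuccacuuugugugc
miR-294-3p: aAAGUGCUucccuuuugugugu
miR-295-3p: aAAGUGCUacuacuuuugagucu
miR-290a-5p: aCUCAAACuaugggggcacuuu
miR-293-3p: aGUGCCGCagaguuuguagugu

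The second set is of the Fx-mir cluster, on the minus strand of chromosome X, shown because the 5p arms of its miR-465 copies share the seed AUUUAGA and are nearly alike. These are miR-465a-5p (chrX:66839099-66839121), miR-465b-5p (chrX:66835811-66835832) and miR-465c-5p (chrX:66826004-66826025), set beside miR-743a-3p (chrX:66776760-66776781) and miR-741-3p (chrX:66796809-66796831). Counted from 1 at the 5′ end, miR-465b-5p and miR-465c-5p differ by U13C, so reads of these copies could have been split between them.
miR-465a-5p: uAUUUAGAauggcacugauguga
miR-465b-5p: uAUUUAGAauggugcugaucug
miR-465c-5p: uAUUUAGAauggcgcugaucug
miR-743a-3p: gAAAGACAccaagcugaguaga
miR-741-3p: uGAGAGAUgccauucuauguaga

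The third set is of microRNAs whose values moved in the testis, shown as near-identical pairs where there is one. MiR-10a-5p (chr11:96317186-96317208, plus strand) and miR-10b-5p (chr2:74726074-74726096, plus strand) differ by U12A. MiR-7a-5p (chr13:58392841-58392863, minus strand, one of its loci) and miR-7b-5p (chr17:56243017-56243040, plus strand) differ by A10U, and miR-7b-5p is 1 base longer. MiR-30a-5p (chr1:23272274-23272295, plus strand) and miR-30e-5p (chr4:120772660-120772681, minus strand) differ by C13U. MiR-202-5p (chr7:139957732-139957752, minus strand) stands alone. A read with an error at the differing base could be counted for its partner.
miR-10a-5p: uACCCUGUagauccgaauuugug
miR-10b-5p: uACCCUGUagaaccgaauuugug
miR-7a-5p: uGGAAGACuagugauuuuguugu
miR-7b-5p: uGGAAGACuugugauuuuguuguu
miR-30a-5p: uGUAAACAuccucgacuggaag
miR-30e-5p: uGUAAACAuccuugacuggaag
miR-202-5p: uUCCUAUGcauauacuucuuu

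The 4 libraries held 1038570 to 1693396 microRNA reads, and the testicular E13.5 library was the smallest. Levels are given as RPM, a library's reads of a microRNA per 1000000 of its own microRNA reads. A value of 0 stands for under 5 reads, which is 2.95 to 4.81 RPM in these libraries. Of the 616 microRNAs, 432 were detected in all 4 libraries and 38 in none. The size factors by which the authors divided their counts ran from 0.614 in the testicular E13.5 library to 1.15 in the ovarian one, so the deposited values of the former lie higher than its RPM. The female E11.5 germ cell library stood apart from the other germ cell libraries, with 2348 RPM of the miR-290 cluster, and enters no comparison of E12.5 with E13.5 other than through the spread.

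Taken over both sexes, 22 microRNAs rose from E12.5 to E13.5 and 0 fell, at an adjusted p under 0.05 (limma with Benjamini-Hochberg adjustment over 507 microRNAs with a mean of at least 5 RPM). That is 4.34% of those tested. At an unadjusted p under 0.05 there were 75 higher and 19 lower, and voom with limma called 30 higher and 0 lower. Of the 22, 5 belong to the miR-290 cluster and 16 to the Fx-mir cluster, and the other is miR-376a-3p of the imprinted Dlk1-Dio3 cluster. The calls rest on 2 residual degrees of freedom: with any one of the E11.5 or E12.5 libraries left out there were 0 calls, and with either E13.5 library left out there were 14. With the 2 germ cell clusters left out of the fit, no microRNA passed, among 42 higher and 21 lower at an unadjusted p under 0.05. There is 1 library per sex and stage, so p-values measure the spread between these libraries, not between repeated isolations. With stage and sex as terms, that spread is how far the changes between stages differed between the sexes. A microRNA whose change differed between ovary and testis therefore had a larger error and was less likely to pass. For such a microRNA, not passing does not show that neither sex changed.

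Of the 10 tested members of the miR-290 cluster, 5 rose, with similar changes in the ovary and testis. MiR-293-3p, the most abundant of them, stood at 62.3 RPM in the ovary and 96.3 RPM in the testis at E12.5, and at 1000 and 1596 RPM at E13.5. Both E13.5 values lie above both E12.5 values, a log2 change of 4.01 ± 0.56 (SE; limma adjusted p = 0.0426). In deposited values it went from 94.6 to 1471 in the ovary and from 133 to 2699 in the testis. MiR-295-3p went from 71.0 and 88.4 RPM to 523 and 660 RPM (log2 change 2.87 ± 0.41, adjusted p = 0.0426). MiR-294-3p went from 38.9 and 72.4 RPM to 373 and 578 RPM (3.10 ± 0.51, adjusted p = 0.0472), and miR-291a-3p from 27.5 and 32.6 RPM to 294 and 305 RPM (3.28 ± 0.50, adjusted p = 0.0471). These are the 3 that share the seed AAGUGCU. MiR-290a-5p had 5 reads in each E12.5 library, and 150 and 100 reads at E13.5 (88.6 and 96.3 RPM). MiR-292a-3p had similar values, 29.5 and 59.4 RPM before against 244 and 455 RPM after, and did not pass the test (adjusted p = 0.0788).

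Of the 22 tested members of the Fx-mir cluster, 16 rose, and most were at 0 or near it at E12.5. The most abundant member, miR-881-3p, went from 21.4 and 36.9 RPM to 798 and 569 RPM and did not pass the test (log2 change 4.53 ± 1.09, adjusted p = 0.121). MiR-741-3p stood at 3.35 RPM in the ovary and 21.7 RPM in the testis at E12.5 and at 387 and 434 RPM at E13.5 (log2 change 5.37 ± 0.81, adjusted p = 0.0467). The ovarian change was 115-fold with a counting interval of 49.2 to 357, from 5 reads against 655, and the testicular change was 20.0-fold (13.8 to 30.0). MiR-465a-5p was at 0 in both E12.5 libraries and at 58.5 RPM in the ovary and 175 RPM in the testis at E13.5, at least 17.5-fold and at least 48.4-fold higher against a floor of 5 reads per library. MiR-743a-3p was likewise at 0 and then at 58.5 and 136 RPM, and miR-880-3p at 0 and then at 52.0 and 112 RPM. MiR-465c-5p went from 0 and 10.9 RPM to 144.7 and 366 RPM. Its near-copy miR-465b-5p went from 0 and 11.6 RPM to 148 and 150 RPM and did not pass the test (adjusted p = 0.0841). MiR-465b-3p and miR-465c-3p have the same sequence and the same values in every library, so they are one measurement counted as 2 calls.

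Of the 45 microRNAs listed for the 2 clusters, 38 were higher at E13.5 in both sexes, 2 in the ovary alone and none was lower in either, while 5 were at 0 in all 4 libraries. Of these 45, 32 passed the filter on low values. All 32 were at least 2-fold higher in both sexes, beside 66 (13%) of all 507 tested, with the 32 included. Fx-mir members at 0 in both E12.5 libraries could pass it only through their E13.5 levels, as the whole cluster summed to 15.8 and 0 RPM at E11.5. Among the 22 calls, 14 were at 0 in both E12.5 libraries, and miR-376a-3p is 1 of these 14. Only 8 of the 22 had a mean of at least 50 RPM over the 4 libraries. As a share of microRNA reads, the miR-290 cluster went from 0.0421% to 0.366% in the ovary and from 0.0619% to 0.604% in the testis. The Fx-mir cluster went from 0.00462% to 0.283% and from 0.0130% to 0.323%. Exact Clopper-Pearson intervals at 95% of the E13.5 shares were 0.357 to 0.375% and 0.589 to 0.619% for the miR-290 cluster, and cover counting error only.

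**Figure D1:**
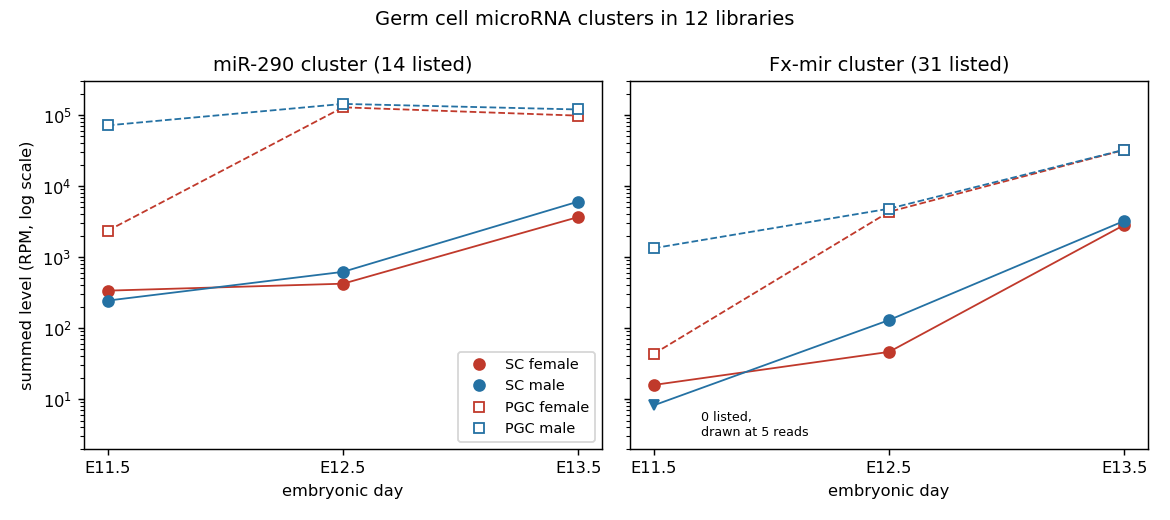
Summed level in RPM (log axis) of the miR-290 cluster (left) and the Fx-mir cluster (right) at each embryonic day, 1 library per point, in somatic (SC, filled) and germ cell (PGC, open) libraries of each sex. Both somatic curves climb between E12.5 and E13.5, to 3659 and 6036 RPM for the miR-290 cluster, and remain below those of the germ cells; the 0 of the male E11.5 somatic library is drawn at 5 reads.

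The germ cell fractions of the same stages give the level against which these values can be read. At E12.5 the somatic level of the miR-290 cluster was 0.329% of that in PGC of the same sex in females and 0.433% in males, and at E13.5 it was 3.74% and 5.06%. For the Fx-mir cluster the E12.5 values were 1.07% and 2.71%, and those of E13.5 were 8.79% and 9.98%. Member by member the proportions at E13.5 were as follows. Across 12 members of the miR-290 cluster the somatic level was a median of 3.79% of the PGC level in females (1.59 to 5.47%) and 4.86% in males (1.91 to 6.26%). Across Fx-mir members the median was 8.80% in females (26 members, 3.47 to 11.4%) and 7.76% in males (24 members, 4.45 to 25.9%), where miR-465a-5p was the highest. As a description, Pearson's r of the log2 levels of these members in SC and PGC was 0.980 and 0.990 for the miR-290 cluster, points that share a library and differ widely in abundance. Members of these 2 clusters make up 21 of the 22 calls, so their PGC levels are no separate check of the rise. The part that remaining germ cells had in the rise was not tested.

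The miR-302 cluster, the other list named for germ and pluripotent cells, had lower somatic values at E13.5. MiR-302b-3p went from 60.3 and 56.5 RPM to 23.6 and 6.74 RPM, and miR-302d-3p from 44.9 and 45.6 RPM to 27.8 and 19.3 RPM. Neither passed the test (adjusted p = 0.184 and 0.374). Both carry the seed AAGUGCU that miR-291a-3p, miR-294-3p and miR-295-3p share, so microRNAs with 1 seed had values in both directions.

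The change in SC was then set against the change in PGC over the same day. Of the 507 microRNAs, 0 had a higher change in SC than in PGC and 10 a lower one (adjusted p under 0.05, limma over 12 libraries), which is 1.97% of those tested, and at an unadjusted p under 0.05 there were 17 and 40. None of the 32 tested members of the 2 germ cell clusters was among the 10. All 10 were at 0 in both PGC libraries of E12.5, which are the shallowest of the series, with 166804 and 184174 reads and floors of 30.0 and 27.1 RPM. MiR-330-5p, which has the largest difference (-6.83 ± 0.80, adjusted p = 0.0337) and was chosen after its values were seen, stood at 113 and 87.6 RPM in SC at E12.5 and at 89.2 and 163 RPM at E13.5. MiR-293-3p had a difference of 2.45 between its SC and PGC log2 changes (adjusted p = 0.529), and miR-741-3p one of 3.06 (adjusted p = 0.49). The count of 10 was 2 on the deposited scale, where the median difference over all microRNAs was -1.36, and it was 0 with a pseudocount of 5 RPM. It was also 0 without any one of the libraries of SC at E12.5, of SC at E13.5 in males, or of female PGC at either stage, and 25 without male PGC at E12.5.

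MiR-376a-3p, the one call outside the germ cell clusters, comes from the Dlk1-Dio3 cluster, whose microRNAs are made from the maternal chromosome. It was at 0 in both E12.5 libraries and at 15.4 RPM in the ovary and 42.4 RPM in the testis at E13.5 (log2 change 4.74 ± 0.78, adjusted p = 0.0472). At E11.5 it had stood at 92.7 and 45.8 RPM, above both E13.5 values, and it was at 0 in all 4 PGC libraries of E12.5 and E13.5. The call rests on 26 and 44 reads, and it was lost on the median-of-ratios scale (adjusted p = 0.0522) and with voom (0.0667). It was also lost with a pseudocount of 5 RPM (0.0776), with no filter (0.153) and with all 12 libraries (0.0784). The same held for the 4 libraries alone (0.124) and without the miR-290 and Fx-mir lists (0.313). It was lost too whenever 1 somatic library was left out (log2 change 3.78 to 5.69). It passed on the deposited and quantile scales, with a pseudocount of 0.5 RPM and with no sex term. Of the 82 tested members of the Dlk1-Dio3 cluster, 4 were at least 2-fold higher and 5 at least 2-fold lower in both sexes, against 66 (13%) and 20 (3.94%) of all 507. Its medians were -0.18 in the ovary and -0.36 in the testis on the log2 scale, beside 0.15 and 0.02 over all tested.

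Each sex was then read apart, with folds counted on the log2(RPM + 1) scale. In the ovary, 110 microRNAs (21.7%) were at least 2-fold higher at E13.5 and 56 (11%) at least 2-fold lower. In the testis, 124 (24.5%) were higher and 107 (21.1%) lower. The standard deviation of the log2 changes was 1.65 in the ovary and 2.06 in the testis. On the deposited scale the testicular split was 161 higher against 89 lower, where the median testicular change is 0.31 in place of 0.02, and the ovarian split was 111 against 59. With 1 library a side, these counts have no replicate check. Only 12 microRNAs (2.37%) were at least 2-fold higher in the ovary and lower in the testis, and 4 (0.789%) the reverse. Across the 507 microRNAs, Pearson's r of the ovarian and testicular changes was 0.561, and 0.310 over the 475 outside the 2 germ cell clusters, a description over microRNAs of the same libraries.

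**Figure D2:**
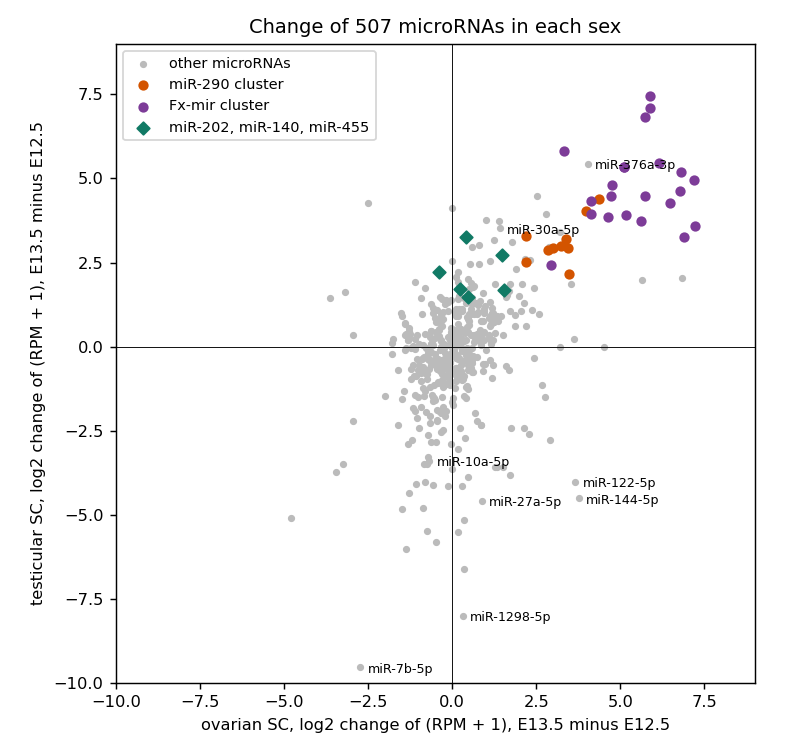
Log2 change of (RPM + 1) from E12.5 to E13.5 in ovarian SC (horizontal axis) against testicular SC (vertical axis) for 507 microRNAs, 1 point each. Members of the miR-290 and Fx-mir clusters lie at the upper right, the 6 arms of miR-202, miR-140 and miR-455 all lie above 1 on the testicular axis, and miR-7b-5p and miR-1298-5p lie low on the testicular axis.

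The microRNAs of gonadal supporting cells had higher values, above all in the testis. MiR-202-5p stood at 226 RPM in females and 136 RPM in males at E11.5, at 2909 and 5096 RPM at E12.5, and at 8436 and 16334 RPM at E13.5. Both E13.5 values exceed both E12.5 values, at 2.90-fold in the ovary (counting interval 2.80 to 3.001) and 3.205-fold in the testis (3.12 to 3.30). The change over both sexes did not pass the test (log2 change 1.61 ± 0.51, adjusted p = 0.201). In deposited values miR-202-5p went from 4415 to 12409 and from 7047 to 27618. The opposite arm, miR-202-3p, went from 97.1 to 130 RPM in the ovary and from 280 to 2719 RPM in the testis, 9.70-fold (8.72 to 10.8). The 5p arm thus made up 96.8% of the reads of this hairpin in the ovary at E12.5 and 98.5% at E13.5, and 94.8% and then 85.7% in the testis. At E11.5 it made up 97.8% in females and 88.3% in males, the latter from 83 reads against 11. PGC held less of miR-202-5p at E13.5, 2982 RPM in females and 997 RPM in males.

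MiR-140 and miR-455 had their higher values in the testis. MiR-140-3p stood at 985 and 1505 RPM in the ovary and testis at E12.5, and at 1147 and 4978 RPM at E13.5, 3.31-fold higher in the testis (3.14 to 3.48) and 1.17-fold in the ovary (1.09 to 1.25). MiR-140-5p went from 589 to 813 RPM in the ovary and from 981 to 2741 RPM in the testis. MiR-455-5p went from 285 to 802 RPM and from 540 to 3544 RPM, after 1102 and 722 RPM at E11.5. MiR-455-3p was the one arm with ovarian and testicular values in opposite directions, 245 to 188 RPM and 295 to 1383 RPM. All 6 arms were at least 2-fold higher in the testis and 2 of 6 in the ovary, beside 24.5% and 21.7% of all tested, with medians of 1.98 and 0.44, and none passed the test over both sexes (0 of 6).

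MiR-30a-5p and miR-30e-5p had the largest gains in RPM of all 616 microRNAs in the testis. MiR-30a-5p went from 3842 to 10242 RPM in the ovary and from 4314 to 49618 RPM in the testis, 2.67-fold (2.59 to 2.75) and 11.5-fold (11.2 to 11.8). MiR-30e-5p went from 3099 to 8110 RPM and from 2763 to 36446 RPM. Neither passed the test over both sexes (adjusted p = 0.184 for each). MiR-30d-5p was lower in the ovary, 13556 to 11915 RPM, and higher in the testis, 13335 to 34720 RPM. MiR-30c-5p, of the same seed as miR-30a-5p, stayed between 11316 and 14052 RPM in all 4 libraries. Summed, the miR-30 list took up 33824 and 36880 RPM at E12.5, and 44949 RPM in the ovary and 134500 RPM in the testis at E13.5. Of its 11 tested members, 3 were at least 2-fold higher in the testis and 1 lower, beside 24.5% and 21.1% of all tested. Its median testicular log2 change was -0.03. In the testis the 3p arms had 540 and then 236 reads for miR-30a, and 993 and then 475 for miR-30e. The 5p share there went from 91.7% to 99.5% for miR-30a and from 79.3% to 98.8% for miR-30e. At E11.5 it was 97.5% and 96.8% in males.

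The list of miR-34 and miR-449, known for targets in the cell cycle and, in the adult, for its part in spermatogenesis, had 5 of 5 tested members at least 2-fold higher in the testis and 3 of 5 in the ovary, beside 24.5% and 21.7% of all tested. MiR-34c-5p went from 300 to 709 RPM in the ovary and from 290 to 2603 RPM in the testis, 8.98-fold (8.08 to 10.002). MiR-34a-5p had 5 reads in each E12.5 library and stood at 31.3 and 34.7 RPM at E13.5. Neither passed the test (adjusted p = 0.188 and 0.0932).

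Many microRNAs with higher values at E13.5 had been low at E12.5. Outside the germ cell clusters, 34 microRNAs were at least 2-fold higher in both sexes, and 26 of these had been lower at E12.5 than at E11.5 in both sexes. MiR-30a-5p stood at 18590 and 11372 RPM at E11.5, miR-30e-5p at 20321 and 12205 RPM and miR-34c-5p at 775 and 504 RPM, each above its E12.5 values. MiR-202-5p was lowest at E11.5, as was let-7b-5p. Let-7b-5p, which was chosen after its values were seen, stood at 27.1 and 39.3 RPM at E11.5, 195.6 and 209 RPM at E12.5, and 589 and 636 RPM at E13.5 (log2 change 1.59 ± 0.40, adjusted p = 0.13). The let-7 list, of microRNAs known to build up as cells mature, had a median of 0.65 in the ovary and 0.17 in the testis, and 0 of 15 members passed. The comparisons of E13.5 and of E11.5 with E12.5 share the E12.5 libraries. MicroRNAs picked as higher than at E12.5 therefore tend to be low at E12.5 against E11.5 as well. The share of all tested microRNAs that were lower at E12.5 than at E11.5 was not counted, so the count of 26 cannot be weighed.

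**Figure D3:**
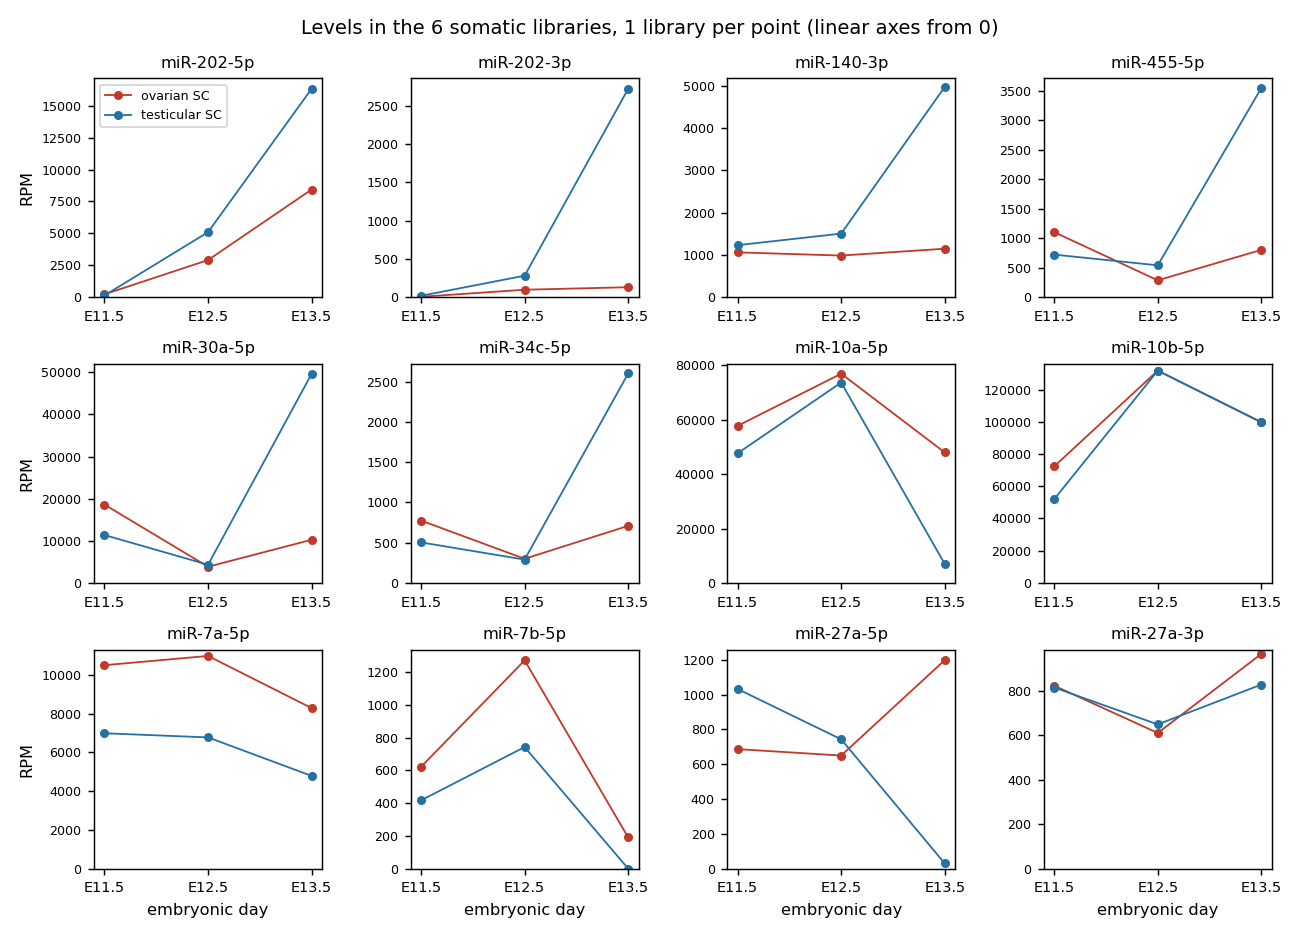
Level in RPM (linear axes from 0) of 12 microRNAs in ovarian and testicular SC over the 3 stages, 1 library per point. MiR-202-5p climbs at each stage, miR-30a-5p, miR-34c-5p and miR-455-5p are low at E12.5 and highest in the testis at E13.5, and miR-10a-5p, miR-7b-5p and miR-27a-5p end near 0 on these axes in the testis, where miR-10b-5p, miR-7a-5p and miR-27a-3p do not.

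The lower values of the testicular E13.5 library included some of the most abundant microRNAs. MiR-10a-5p, from the HoxB cluster, stood at 76903 and 73662 RPM in the ovary and testis at E12.5, and at 47961 and 6955 RPM at E13.5. The testicular change was 10.6-fold lower (10.3 to 10.8) and the ovarian one 1.60-fold lower (1.59 to 1.62), and over both sexes the log2 change was -2.04 ± 0.73 (adjusted p = 0.248). MiR-10b-5p, of the HoxD cluster, which differs by a single base, went from 131730 to 99612 RPM in the ovary and from 131720 to 99773 RPM in the testis, 1.32-fold lower in each. MiR-196a-5p went from 4571 to 2864 RPM and from 3540 to 737 RPM. MiR-196b-5p went from 1223 to 1200 RPM and from 901 to 120 RPM. Of the 8 members of this Hox-linked list, 4 were at least 2-fold lower in the testis and 1 in the ovary, beside 21.1% and 11% of all tested, so the ovarian count is near the share of all microRNAs.

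MiR-7b-5p stood at 1272 and 742 RPM in the ovary and testis at E12.5, and at 191 and 0 RPM at E13.5. It was 6.67-fold lower in the ovary (5.92 to 7.52) and at least 154-fold lower in the testis, where 1025 reads were followed by under 5 (log2 change over both sexes -6.13 ± 1.85, adjusted p = 0.184). MiR-7a-5p, with the same seed, went from 10985 to 8293 RPM and from 6779 to 4791 RPM. MiR-1298-5p, an X-linked microRNA, went from 211 to 263 RPM in the ovary and from 256 to 0 RPM in the testis, at least 53.3-fold lower. MiR-375-3p, known from endocrine cells, went from 469 to 268 RPM and from 490 to 28.9 RPM, and miR-26a-2-3p from 121 to 80.9 RPM and from 165 to 8.67 RPM.

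The 2 arms of miR-27a parted in the testis. MiR-27a-5p went from 650 to 1198 RPM in the ovary and from 743.2 to 29.8 RPM in the testis, 24.9-fold lower (17.4 to 36.8). MiR-27a-3p went from 610 to 966 RPM and from 649 to 828 RPM. The 5p arm made up 45.5 to 55.9% of this hairpin's reads in the other 5 somatic libraries and 3.48% in the testicular E13.5 library, 31 reads against 860.

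The epithelial miR-200 family had lower values in the testis, in 6 of 7 tested members by at least 2-fold, and in 0 of 7 in the ovary, beside 21.1% and 11% of all tested. MiR-200b-3p went from 2301 to 1903 RPM in the ovary and from 2654 to 765 RPM in the testis. MiR-429-3p went from 608 to 785 RPM and from 583 to 88.6 RPM. MiR-200a-3p was higher in the ovary, 724 to 2210 RPM, and stood at 716 and then 481 RPM in the testis. Of the 7 members, 0 passed the test over both sexes. PGC held more of this family. Its somatic sum was 11.2% and 10.1% of that in PGC at E12.5 (females and males), and 11.0% and 3.18% at E13.5. The list of miR-182, miR-183 and miR-96 was also higher in PGC, with somatic sums at 4.65% and 2.69%, then 8.31% and 4.12%. Its somatic sums went from 1416 to 3521 RPM in the ovary and from 1740 to 3027 RPM in the testis. The part of remaining germ cells in either list was not tested.

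Over both sexes no fall passed the test, and the 5 lower microRNAs with the smallest unadjusted p, among those with a mean of at least 50 RPM and 1 direction in both sexes, are named here as not past it. Of these, 3 belong to the Dlk1-Dio3 cluster, the largest list, which holds 82 of the 507 microRNAs tested. The median log2 changes of its tested members were -0.18 in the ovary and -0.36 in the testis, so no fall of the whole cluster is drawn from these 3. MiR-758-3p went from 397 and 477 RPM to 184 and 125 RPM (log2 change -1.51 ± 0.42, adjusted p = 0.174), and miR-495-3p from 3729 and 4048 RPM to 2051 and 1726 RPM (-1.05 ± 0.30, adjusted p = 0.18). MiR-323-3p went from 1475 and 1144 RPM to 659 and 320 RPM (-1.50 ± 0.50, adjusted p = 0.226). MiR-335-3p, made from the imprinted Mest gene, went from 8490 and 8379 RPM to 4930 and 2188 RPM (-1.36 ± 0.41, adjusted p = 0.184), while its 5p arm went from 5663 and 4695 RPM to 6098 and 8770 RPM. The fifth was miR-7b-5p. In the ovary alone, among microRNAs with at least 100 RPM in either library, the most negative log2 changes beside that of miR-7b-5p were those of miR-206-3p of striated muscle, miR-532-3p, miR-615-3p of the HoxC cluster (5596 to 1821 RPM) and miR-3072-3p. MiR-206-3p went from 137 to 13.6 RPM there.

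**Figure D4:**
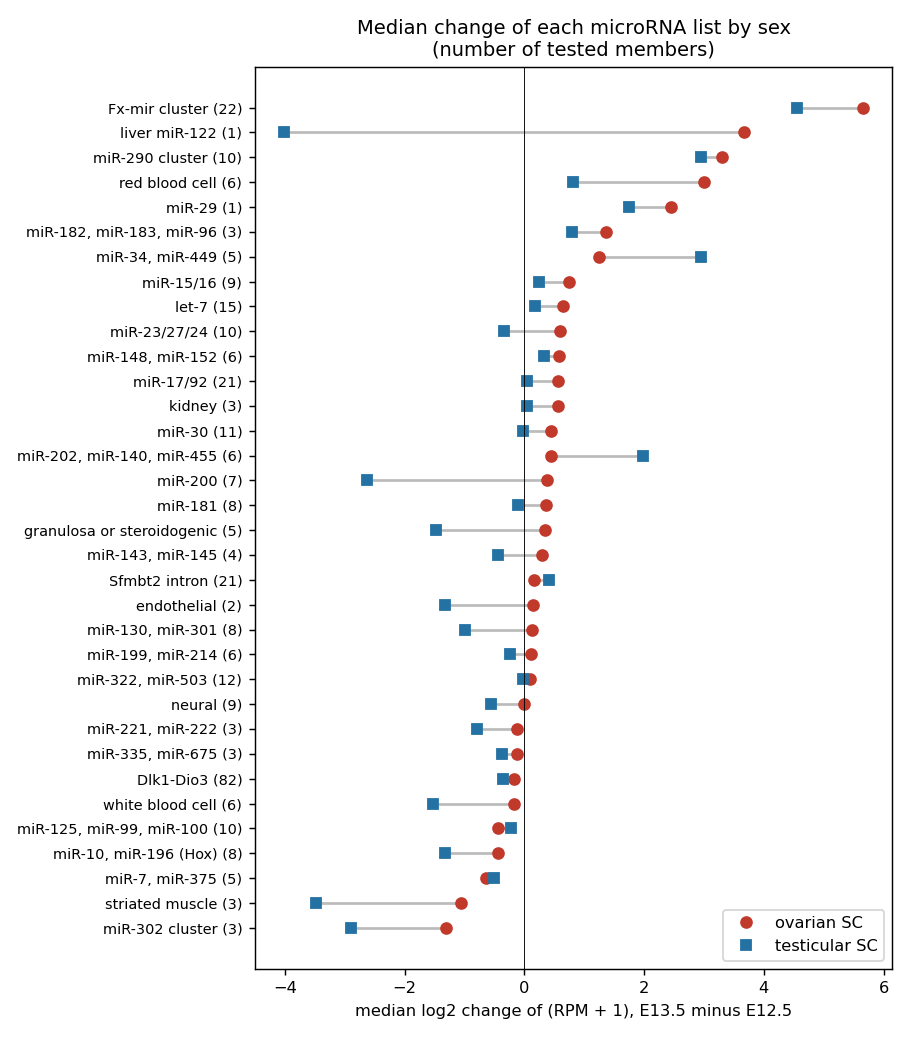
Median log2 change of (RPM + 1) from E12.5 to E13.5 of the tested members of each of 34 microRNA lists in ovarian (circles) and testicular (squares) SC, with the number of tested members in brackets. The Fx-mir and miR-290 clusters lie high in both sexes, miR-202, miR-140 and miR-455 have medians of 0.44 and 1.98, and the miR-200 family has 0.37 in the ovary and -2.63 in the testis; members that passed the filter only through E13.5 set the Fx-mir median high.

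Most of the other abundant microRNAs stayed within 2-fold in each sex. Beside miR-10b-5p and miR-10a-5p, the 10 with the highest mean include miR-99a-5p, which went from 43907 and 47602 RPM to 31346 and 37262 RPM, and miR-26a-5p, from 42221 and 39621 RPM to 47150 and 45096 RPM. MiR-99b-5p, miR-125b-5p and miR-148a-3p had changes of -0.73, -0.05 and 0.16 in the ovary and -0.38, -0.49 and 0.90 in the testis on the log2 scale. MiR-199a-3p and miR-143-3p, both abundant in mesenchymal cells, and miR-126a-3p of endothelium complete the 10. These 3 had higher values in the ovary and lower ones in the testis, and for miR-126a-3p the levels were 26585 and then 32727 RPM in the ovary and 30917 and then 15410 RPM in the testis.

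Among markers of other cells, the RPM sums for red blood cells, hepatocytes and endothelium moved in opposite directions in the sexes. Those of the other lists given here moved in the same direction in both. The red blood cell list summed to 475 RPM in the ovary and 512 RPM in the testis at E12.5, and to 2462 and 453.5 RPM at E13.5 (in deposited values the testicular sum was higher at E13.5, 767 after 708), and all 6 of its members were at least 2-fold higher in the ovary, beside 21.7% of all tested. Its leading member, miR-451a, went from 247 to 1697 RPM in the ovary and from 304 to 108 RPM in the testis. In the testis the members went both ways, with 3 of 6 at least 2-fold higher, 2 of 6 at least 2-fold lower and a median log2 change of 0.81. MiR-122-5p, the microRNA of hepatocytes, went from 65.7 to 842 RPM in the ovary and from 15.2 to 0 RPM in the testis. It had stood at 653 and 3023 RPM at E11.5. The endothelial list summed to 28958 and 33050 RPM at E12.5 and to 35067 and 16088 RPM at E13.5. The muscle list summed to 456 and then 251 RPM in the ovary and to 231 and then 131 RPM in the testis. The kidney list summed to 630.5 and then 891 RPM in the ovary and to 674 and then 736 RPM in the testis. For white blood cells the sums were 299 and then 330 RPM, and 207 and then 314 RPM. For nervous tissue they were 1442.5 and then 1019 RPM, and 1450 and then 1245 RPM. In deposited values the testicular sum for nervous tissue was higher at E13.5, 2105 after 2005. The part of all these cells in the ovarian and testicular changes was not tested.

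The base composition of the microRNAs moved with the change in the ovary. Over the 441 tested microRNAs with a sequence (87.0%), Spearman's rho between the share of G and C and the ovarian log2 change was -0.389, and with the testicular change 0.1001, as a description over microRNAs. The median GC content was 42.9% among those at least 2-fold higher in the ovary and 57.1% among those at least 2-fold lower, against 47.6% over all 441. In the testis the medians were 45.5% and 43.5%. The part of base composition in the ovarian change was not tested.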

How the data were processed

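Small RNAs under 100 bp from 12 libraries were sequenced on a MiSeq, per the labels' protocols. Per the submitters' processing notes, the tools were FastQC, Trim Galore, Bowtie 1.1.2 and DESeq, with GRCm38 as the build; how reads per microRNA were counted is not given in the sources used here. As deposited by the authors, the values are a normalized signal. Every value was 0 or a whole multiple (tolerance 1e-06) of 1 step, the library's smallest value over 5. Reads and size factors were taken back from this step, and 0 was read as under 5 reads. The values of single-library files differed by 0 from the joint table.

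Values were rescaled to RPM and analysed as log2(RPM + 1), which understates the change of low microRNAs; the fitted change of one at 0 in a library depends on the 1 RPM added. The test was limma 3.58.1 in R 4.3.3 (empirical Bayes with trend) on the 6 somatic libraries with stage and sex as terms, for microRNAs with a mean of at least 5 RPM, at an adjusted p under 0.05. The comparison with PGC used all 12 libraries and 4 residual degrees of freedom. Each sex apart has 1 library a side: a change of at least 2-fold was counted, and folds carry exact Clopper-Pearson intervals at 95%, for counting error only, as reads copied by PCR carry no molecular identifier and are not independent. A fold against 0 uses a floor of 5 reads per library. The fit was also run on simulated counts with the same change in both sexes. These data differ from that setting, so no support is drawn from it.

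Named microRNAs were those with the largest changes over both sexes (mean of at least 50 RPM) and in each sex (at least 100 RPM), the 10 most abundant, up to 4 leading members of each of 34 lists, all arms of miR-202, miR-140 and miR-455, and the 5 with the most opposed sexes. Other members of the called clusters and microRNAs named as chosen after their values were seen lie outside this rule. The members and lists were chosen with earlier results of these data known. Alternatives were other scales, pseudocounts, filters, designs and left-out libraries.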

Additional observations from a re-analysis of the deposited data

Results flagged for a closer look

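Of 144 tested microRNAs named by the rule, 40 had ovarian and testicular values that moved in opposite directions from E12.5 to E13.5, and in 32 of them both changes lay beyond their counting intervals. Of all 507 tested, 335 had changes of the same sign in both sexes, so the count of 40 is not shown to exceed the background. The rule also named some microRNAs because their sexes were opposed. With 1 library per sex and stage, the difference was not tested for any of them. The testicular minus the ovarian log2 change is given for these 32, and 24 are negative (the testis lower).

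For 3 microRNAs at 0 in the testicular E13.5 library the difference is a bound at the floor of 5 reads: -6.05 or lower for miR-1298-5p, -6.03 or lower for miR-144-5p of red blood cells and -5.34 or lower for miR-122-5p of hepatocytes. MiR-144-5p, at 16.1 RPM in the ovary and 21.7 RPM in the testis at E12.5, stood at 233 and 0 RPM at E13.5. The difference was -5.47 for miR-27a-5p, -4.26 for miR-451a, -3.07 for miR-429-3p and -2.18 for miR-200a-3p.

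Smaller negative differences were -1.30 for miR-126a-3p, -1.17 for miR-15b-5p, -1.16 for miR-9-5p, -1.04 for miR-221-3p, -1.02 for miR-143-3p and -1.01 for miR-93-5p. They were -0.97 for miR-450a-5p, -0.95 for miR-132-3p, -0.82 for miR-24-3p, -0.75 for miR-23a-3p, and -0.77 for each of miR-23b-3p, miR-148b-3p, miR-199a-3p and miR-199b-3p. The last 2 may share reads. They were -0.55 for miR-199a-5p, -0.36 for miR-30c-5p and -0.10 for miR-411-5p.

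In 8 microRNAs the testicular change was the higher one, by 2.61 for miR-455-3p, 1.72 for miR-320-3p, 1.57 for miR-30d-5p, 1.55 for miR-34b-3p and 1.08 for miR-127-3p, and by 0.90 for miR-214-3p, 0.89 for miR-351-5p and 0.53 for let-7e-5p. On the deposited scale the testicular values of miR-24-3p, miR-30c-5p, miR-148b-3p, miR-199a-5p and miR-411-5p were higher at E13.5, as the ovarian ones were.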

How the results depend on the processing

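The count of 22 microRNAs that rose over both sexes was 17 to 30 on the deposited, median-of-ratios or quantile scale, with a pseudocount of 0.5 or 5 RPM, with no filter, with no sex term and with voom. Of the 22, 18 were also called on the deposited scale. The count was 1 with a mean of at least 50 RPM, 2 with all 12 libraries in the fit, 0 with the 4 libraries alone and 0 without the miR-290 and Fx-mir lists, an alternative chosen after seeing the data. It was 0 to 14 when 1 somatic library was left out. The count of 0 that fell was 2 with quantile normalization, which moves the median change of all microRNAs to -0.19, 1 with no filter, and 0 to 1 with 1 library left out. For SC against PGC the count of 10 lower was 2 on the deposited scale, 0 with a pseudocount of 5 RPM, 6 with a mean of at least 50 RPM and 0 to 25 with 1 library left out, and the count of 0 higher was 0 to 1. With a mean of at least 50 RPM the ovarian counts were 56 higher and 24 lower and the testicular ones 72 and 53, because fewer microRNAs are then tested. Apart from such smaller tables and fits with fewer libraries, the cause was not tested. Over the 22 calls, 360 alternative values kept the direction, of which 179 no longer passed the threshold. Over 133 named microRNAs that did not pass, 24 of 2374 alternative values did. On the deposited scale the sums of 8 lists and sexes had the opposite direction, 7 of them in the testis. The planned edgeR and DESeq2 fits were not run, because the deposited values hold no count of 1 to 4 reads and are not raw counts. Sex is the only pairing the labels give, and the 22 calls were made with it as a term; without it there were 29. Depth limits what can be said of microRNAs near 5 reads, among them most Fx-mir members at E12.5.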
